A study of Danio rerio with 20 samples.

Results

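Whole zebrafish embryos exposed to cyclopamine were compared with embryos exposed to GANT-61, so that a compound that binds the hedgehog pathway's membrane protein smoothened stands beside one described as a blocker of its gli transcription factors. The 5 arrays titled cyclopamine and the 5 titled GANT-61 were taken, 10 of the 20 arrays in the series. Cyclopamine-treated embryos received 10 µM of the compound, GANT-61-treated embryos received 10 µM as well, and vehicle embryos received 0.1% ethanol, each from 0.5 to 24 h after fertilization. Every group had 5 replicates that the labels call independent, each of 100 embryos pooled for 1 RNA sample and hybridised to 1 single-colour Agilent array. Neither a strain nor a genotype is given in the sources used here. The ethanol arrays give the level without either compound.

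In the hedgehog pathway a secreted ligand binds the receptor patched, which then releases smoothened, and smoothened in turn lets the gli proteins switch on target genes. In the zebrafish embryo the ligand comes from the notochord and floor plate, and it specifies ventral cell types of the neural tube and brain, slow muscle fibres and muscle pioneers of the somites, and sclerotome. Cyclopamine, a plant steroidal alkaloid, binds smoothened, and GANT-61, a synthetic molecule of another structural class, was selected in mammalian cells as a blocker of gli1 and gli2. On these arrays 0 of 26 hedgehog-responsive genes differed between GANT-61 and ethanol (limma, adjusted p under 0.05). At an unadjusted p under 0.05 there were 3. The 0 is near the share of 1.9% among all probes, so nothing is read from this count about these genes. Their median difference from ethanol was 0.07 on the log2 scale, beside 0.05 for all probes.

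Levels are given as log2 of the background-subtracted signal relative to the 75th percentile of the same array, so that 0 is the level of that percentile and a step of 1 is a 2-fold change. Each difference is cyclopamine minus GANT-61 on that scale, from a limma fit of all 20 arrays with the slide as a term. Besides the 2 compounds and ethanol, the fit held 5 arrays of embryos exposed to SANT-2 at 10 µM. The ethanol and SANT-2 arrays thus share in the slide terms and in the spread behind each SE and p-value. A probe was called at an adjusted p under 0.05. A gene is said to fall or rise under cyclopamine relative to GANT-61, whichever compound departs from ethanol. Between 10315 and 11978 probes were well above background on the cyclopamine arrays, 10959 to 12087 on the GANT-61 arrays and 10713 to 12515 on the ethanol arrays. The arrays lay on 4 slides, each with both compounds, and slide accounted for 89.8% of the first principal component of all 20 arrays, which held 41.5% of the variance, and group for 6.60% of it. The scaling percentile stood at intensities of 565 to 1615 for cyclopamine, 746 to 1414 for GANT-61 and 698 to 2060 for ethanol, and slide 2 was the dimmest in each group. Of 16 marker genes of embryonic tissues, 11 were matched to a probe by symbol, and 10 of these were above background on all 10 arrays. The exception was the lens crystallin gene cryaa, detected on 0 of 5 cyclopamine and 2 of 5 GANT-61 arrays.

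The genes that differed most between the compounds were hedgehog-responsive genes of the ventral neural tube and mesoderm, and genes of slow muscle, and they were lower under cyclopamine. Some other genes, elavl2, pm20d1.1, lim2.2 and amy2al1 among them, were higher on every GANT-61 array than on any cyclopamine or ethanol array. Of 11134 probes tested, 626 differed, or 5.62%, with 212 higher (1.9%) and 414 lower (3.72%) under cyclopamine, and 2187 had an unadjusted p under 0.05. The median difference of all probes was -0.04, and 57.3% of them lay below 0. A change of at least 2-fold was seen in 104 of the called probes, 10 of them higher and 94 lower under cyclopamine. The 2 groups of arrays did not overlap in 252 of the called probes, against 311, or 2.79%, of all probes. On each of the 4 slides 601 of the called probes kept their sign, against 2444, or 22.0%, of all probes. The calls were made from these same slides, so this is not a separate test of them.

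The size of the list depended on the design. Without the slide term 209 probes were called, and 188 when the 10 arrays were fitted alone. Leaving out cyclopamine array 4 gave 278 calls and leaving out GANT-61 array 1 gave 379. Without slide 1 there were 190 calls, without slide 3 there were 231 and without slide 4 there were 330. Quantile scaling gave 285 higher and 364 lower calls, a share of 56.1% lower, where the 75th percentile gave 66.1%.

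**Figure D1:**
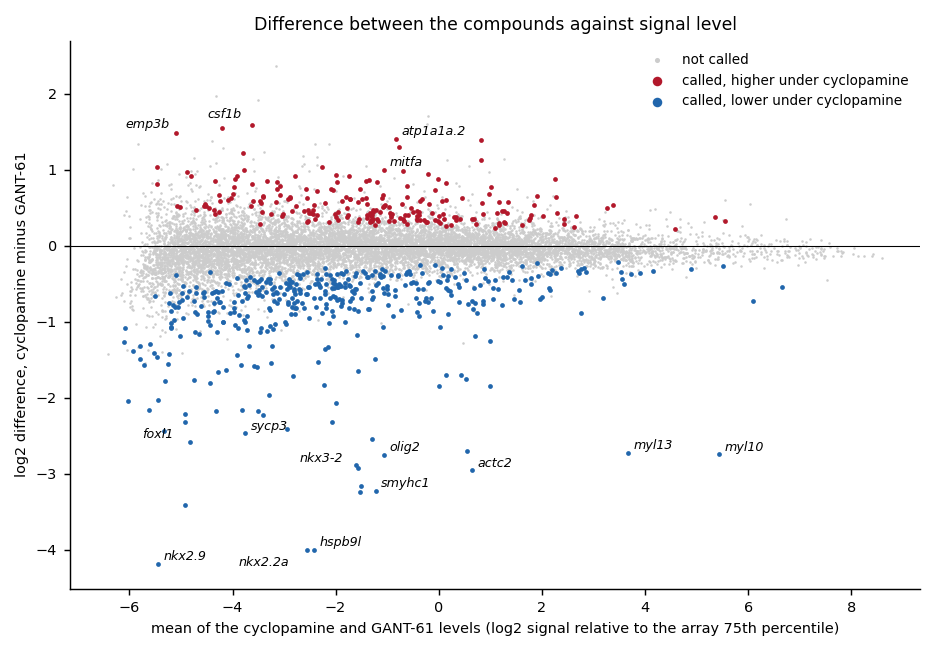
Difference between the compounds for each of 11134 probes (vertical axis, log2, cyclopamine minus GANT-61) against the mean level over both groups (horizontal axis, log2 relative to the array's 75th percentile). Red points are the 212 probes called higher and blue points the 414 called lower under cyclopamine; the points at -4.00 are nkx2.2a and hspb9l, and nkx2.9, drawn below them, was above background on 0 of 5 cyclopamine arrays and gives a bound alone.

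In the ventral neural tube, 10 of 11 hedgehog-responsive genes fell under cyclopamine relative to GANT-61 and 0 rose, beside 3.72% of all probes called lower. In 7 of the 11 the arrays of the 2 groups did not overlap, beside 2.79% of all probes. Without nkx2.9, which passed the background filter through GANT-61 alone, 9 of 10 fell. The median of the 11 differences was -0.69. nkx2.2a, a homeobox gene of the progenitors next to the floor plate, stood at -4.81, -4.84, -3.59, -4.87 and -4.58 on cyclopamine arrays 1 to 5, against -0.49, -0.42, -0.54, -0.99 and -0.36 on GANT-61 arrays 1 to 5 and -0.71 to -0.35 on the ethanol arrays. No cyclopamine array came near the lowest GANT-61 array, and the GANT-61 arrays spanned the ethanol level. The difference was -4.00 ± 0.17 (SE, n = 5 arrays each), a 16.1-fold lower signal (limma adjusted p = 1.09e-09), and GANT-61 differed from ethanol by 0.08, with a 95% interval of -0.28 to 0.45.

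nkx2.9, which is expressed beside nkx2.2a, stood at -8.03, -7.51, -5.50, -8.03 and -8.42 on the cyclopamine arrays and -3.02, -3.63, -3.25, -4.06 and -2.94 on the GANT-61 arrays. On all 5 GANT-61 arrays, and on 0 of the 5 cyclopamine arrays, the probe passed the background limit. The signal was therefore at least 6.87-fold lower under cyclopamine (limma adjusted p = 1.12e-05), where the bound sets the GANT-61 mean against the lowest signal above background on each cyclopamine array. The probe passed the background filter through GANT-61 alone, which built a difference into its selection. The adjusted p rests on cyclopamine values below background. GANT-61 differed from ethanol by 0.08 (95% interval -0.79 to 0.94).

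olig2, needed for motor neurons and oligodendrocytes, read -3.04, -2.55, -1.73, -2.85 and -2.04 on the cyclopamine arrays, against 0.09, 0.56, 0.35, 0.34 and 0.29 on the GANT-61 arrays. The GANT-61 values and the ethanol values of 0.21 to 0.51 occupied the same range, and all cyclopamine values lay below both. The difference was -2.75 ± 0.17, or 6.74-fold (adjusted p = 8.01e-08), and that of GANT-61 to ethanol was -0.07 (95% interval -0.43 to 0.28). In whole embryos fewer cells of a type and less RNA per cell cannot be told apart.

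nkx6.1, a gene of ventral neural progenitors and of the pancreas, read -1.07, -0.10, 0.08, -0.66 and -0.31 on the cyclopamine arrays and 1.16, 1.31, 1.35, 1.27 and 1.36 on the GANT-61 arrays. Its difference was -1.70 ± 0.16 (adjusted p = 1.02e-05). foxa, a forkhead gene of the floor plate, read -0.36, 0.12, -0.49, -0.59 and -0.22 under cyclopamine and 1.44, 1.62, 1.56, 0.75 and 1.55 under GANT-61. The groups were again separate, although GANT-61 array 4 lay below the other 4 arrays of its group, and the difference was -1.76 ± 0.16 (adjusted p = 6.71e-06). The related floor plate and endoderm genes foxa2 and foxa1 fell by less, with -0.57 ± 0.10 and -0.50 ± 0.13, and their arrays overlapped. The call of foxa2 was lost without the slide term, in the fit of the 10 arrays alone and without slide 3, and that of foxa1 in 15 of the 30 alternative fits and settings tried.

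The ventral forebrain genes nkx2.4b, nkx2.4a and nkx2.1, which mark the hypothalamus, differed by -0.67 ± 0.10, -0.69 ± 0.13 and -0.60 ± 0.13 (adjusted p = 0.000414, 0.00524 and 0.0144). The call of nkx2.4a was lost without slide 1 or slide 3, and that of nkx2.1 without the slide term, in the fit of the 10 arrays alone and without cyclopamine array 4, GANT-61 array 1 or slide 1, 3 or 4. foxd1, a forkhead gene of the ventral forebrain and the temporal retina, read -1.07, -0.69, 0.30, -0.68 and -0.51 under cyclopamine and 0.38, 0.89, 0.66, 0.43 and 0.46 under GANT-61, a difference of -1.06 ± 0.13 (adjusted p = 6.78e-05). Cyclopamine array 3 was the closest to the GANT-61 arrays and stayed under all of them. The optic stalk genes did not pass: pax2a differed by -0.03 (95% interval -0.31 to 0.25), vax1 by -0.41 (-0.90 to 0.09) and vax2 by -0.49 (-0.90 to -0.07, adjusted p = 0.172). The eye field gene six3b, with 0.08 (-0.16 to 0.32), the midline signal gene fgf8a, with -0.33 (-0.62 to -0.05, adjusted p = 0.173), and the hypothalamic gene sim1a, with -0.22 (-0.68 to 0.24), did not pass either. Of 9 forebrain and optic stalk genes tested, 4 fell and 0 rose, with a median difference of -0.49, beside 3.72% of all probes called lower. Of the 4, nkx2.1, nkx2.4a and nkx2.4b also count among the ventral neural tube genes above.

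**Figure D2:**
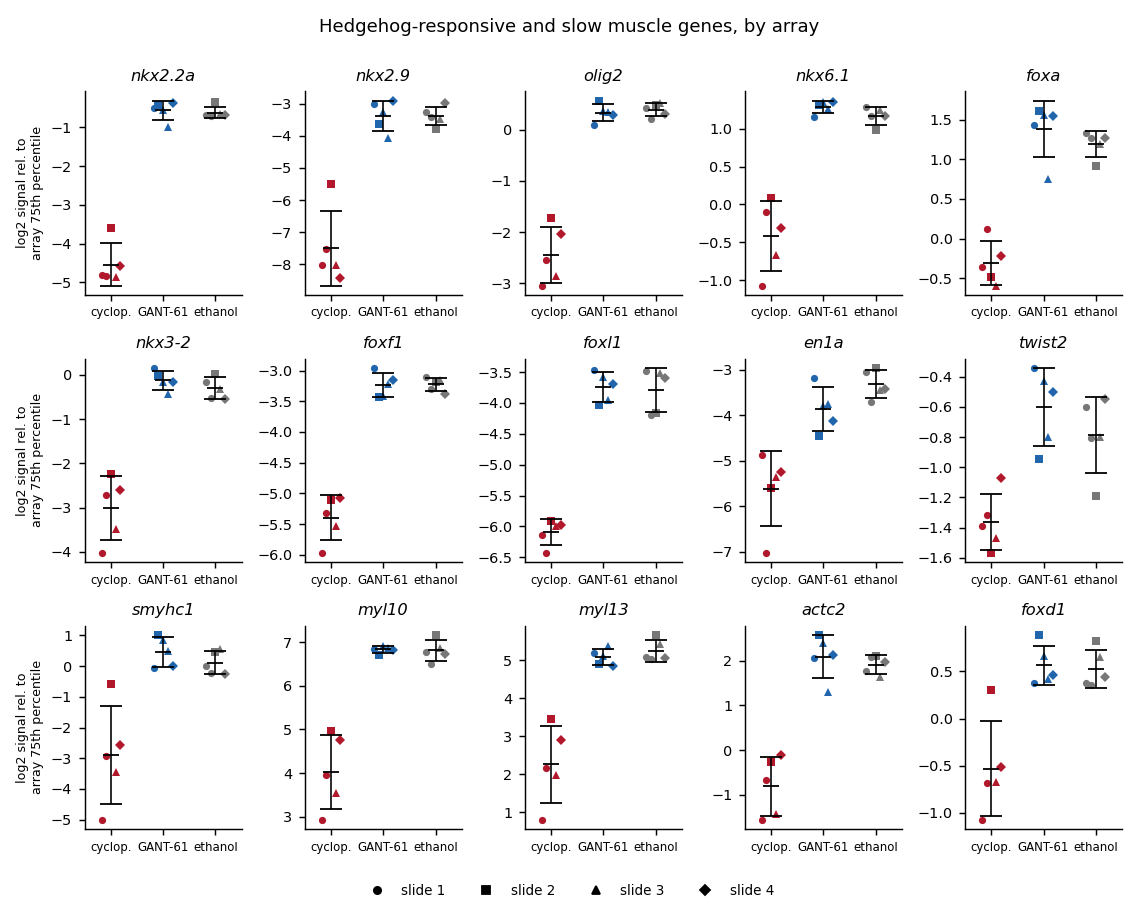
Level of 15 hedgehog-responsive and slow muscle genes on each array (log2 relative to the array's 75th percentile) for cyclopamine, GANT-61 and ethanol, with symbols for the 4 slides and bars for the mean and SD of 5 arrays. The cyclopamine arrays of nkx2.2a lie between -4.87 and -3.59 and the GANT-61 arrays between -0.99 and -0.36, and in each of the 15 genes the GANT-61 and ethanol ranges overlap.

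In the mesoderm, 6 of 8 hedgehog-responsive genes fell and 0 rose. Of the 8, foxf1, foxl1, foxf2a and en1a passed the background filter through the GANT-61 arrays alone, which built a difference into their selection. Among the 4 measured in both groups 2 fell, beside 3.72% of all probes, and their median difference was -0.48. nkx3-2, a gene of sclerotome and jaw joint cartilage, read -4.02, -2.72, -2.25, -3.48 and -2.60 on the cyclopamine arrays, against 0.16, -0.03, -0.15, -0.44 and -0.16 on the GANT-61 arrays and -0.54 to 0.03 on the ethanol arrays. This was a gap of more than 1 log2 unit between the nearest arrays of the compounds. The difference was -2.92 ± 0.25, or 7.58-fold (adjusted p = 3.44e-06), and GANT-61 differed from ethanol by 0.21 (95% interval -0.32 to 0.74).

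The forkhead genes foxf1 and foxl1, which mark gut and ventral mesenchyme, were lower on every cyclopamine array. foxf1 read -5.96, -5.32, -5.10, -5.53 and -5.07 under cyclopamine and -2.96, -3.43, -3.42, -3.21 and -3.15 under GANT-61, a difference of -2.18 ± 0.17 (adjusted p = 1.17e-06). foxl1 read -6.14, -6.43, -5.92, -5.99 and -5.99 under cyclopamine and -3.47, -4.03, -3.59, -3.96 and -3.69 under GANT-61, a difference of -2.32 ± 0.17 (adjusted p = 6.76e-07). Neither pair of groups overlapped. The probes were above background on 3 and 2 of the 5 cyclopamine arrays, so selection through GANT-61 alone built in a difference here. The related foxf2a differed by -2.16 ± 0.42, and en1a, a homeobox gene of muscle pioneers, by -1.76 ± 0.34 (adjusted p = 0.00532 and 0.00525). Both were above background on 3 of 5 cyclopamine arrays and were selected in the same way. Both calls were lost in the fit of the 10 arrays alone and without slide 3. twist2, a gene of sclerotome and its fin mesenchyme, differed by -0.78 ± 0.09 (adjusted p = 5.37e-05). The second engrailed gene en1b differed by -0.17 (95% interval -0.46 to 0.12), and pax1a, a sclerotome gene, by 0.17 (-0.18 to 0.52).

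Over all hedgehog-responsive and feedback genes, 38 were listed, 27 were matched to a probe by symbol and 26 were tested, with gli1 too dim. Of the 4 feedback genes listed, hhip alone was tested, and no patched gene was among the hedgehog genes tested. Of the 26, 18 fell, 0 rose and 24 lay below 0, beside 3.72% of all probes called lower and 57.3% below 0. This list, like the others, was chosen with earlier results of these data known, so its counts are not an independent test. Apart from nkx2.9, which gives a bound alone, their differences ran from -4.00 to 0.17, and the median of the 26 was -0.74 with nkx2.9 at its fitted value or at its bound. A total of 7 of the 26 passed the background filter through the GANT-61 arrays alone, so that a difference was built into their selection. Among the 19 that were measured in both groups, 12 fell, and their median was -0.60. The list's count was 11 without slide 3, where 231 of all 11134 probes were called. The median of the list was -0.90 within slide 1, -0.62 within slide 2, -0.72 within slide 3 and -0.92 within slide 4.

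The ethanol arrays served both compounds, so the following counts share their controls. Cyclopamine against ethanol gave 249 calls in 11134 probes (2.24%), 58 higher and 191 lower, and 16 of the 26 hedgehog-responsive genes were among the lower ones. GANT-61 against ethanol gave 212 calls (1.9%), 191 higher and 21 lower, with none of the 26 among them in limma (3 at an unadjusted p under 0.05). For a list of 26 this is near the 1.9% of all probes, and nothing is read from that count. The 26 genes had a median of -0.56 under cyclopamine and 0.07 under GANT-61 relative to ethanol, where the medians of all probes were 0.03 and 0.05.

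Among the genes that encode the pathway itself, most did not pass the test. Of 30 components tested, 2 fell and 0 rose, beside 5.62% of all probes called, and the median difference was 0.03. The ligand gene shha read 1.91, 2.11, 1.99, 1.91 and 1.40 under cyclopamine and 1.79, 2.03, 1.97, 1.95 and 2.19 under GANT-61, where only cyclopamine array 5 stood apart, and the difference was -0.13 (95% interval -0.39 to 0.12). Its paralogue shhb differed by -0.38 ± 0.09 (adjusted p = 0.0251), and the call was lost in 11 of the 30 alternatives, with the replicate number as the block among them (adjusted p = 0.0723). ihha and ihhb, the other measured ligand genes, gave -0.08 (-0.55 to 0.39) and 0.04 (-0.36 to 0.45). scube2, whose product releases the ligand, differed by 0.45 (0.10 to 0.80, adjusted p = 0.137), disp1, which exports it, by -0.20 (-0.59 to 0.19) and the glypican gene gpc4 by -0.29 (-0.58 to 0.01).

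At the membrane, smo, the gene of the protein that cyclopamine binds, read 0.97, 1.45, 1.45, 0.97 and 1.17 under cyclopamine and 1.33, 1.68, 1.32, 1.14 and 1.3 under GANT-61. The ranges overlapped, and the difference was -0.19 (-0.40 to 0.01). The coreceptor genes cdon and gas1b gave 0.03 (-0.23 to 0.29) and 0.21 (0.01 to 0.40, adjusted p = 0.224). hhip, which encodes a ligand-binding protein that the pathway itself induces, differed by -0.80 ± 0.22 (adjusted p = 0.0460). It was above background on 2 of 5 cyclopamine arrays, so it passed the background filter through GANT-61 alone, and its call was lost in 22 of the 30 alternatives.

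Downstream, 0 of 16 transduction genes passed, and 0 had an unadjusted p under 0.05. gli2a, a target of GANT-61 by the compound's description, read -0.18, -0.09, 0.26, -0.17 and -0.25 under cyclopamine and -0.46, -0.00, -0.36, -0.18 and -0.08 under GANT-61, a difference of 0.14 (-0.09 to 0.37). The other gli genes gave 0.04 (-0.33 to 0.41) for gli2b and 0.03 (-0.20 to 0.26) for gli3. sufu and kif7, whose products hold the gli proteins in check, gave 0.12 (-0.02 to 0.26) and -0.04 (-0.18 to 0.11). The remaining members of the group, among them kinase, ubiquitin ligase and cilium transport genes, lay between -0.18 and 0.30.

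**Figure D3:**
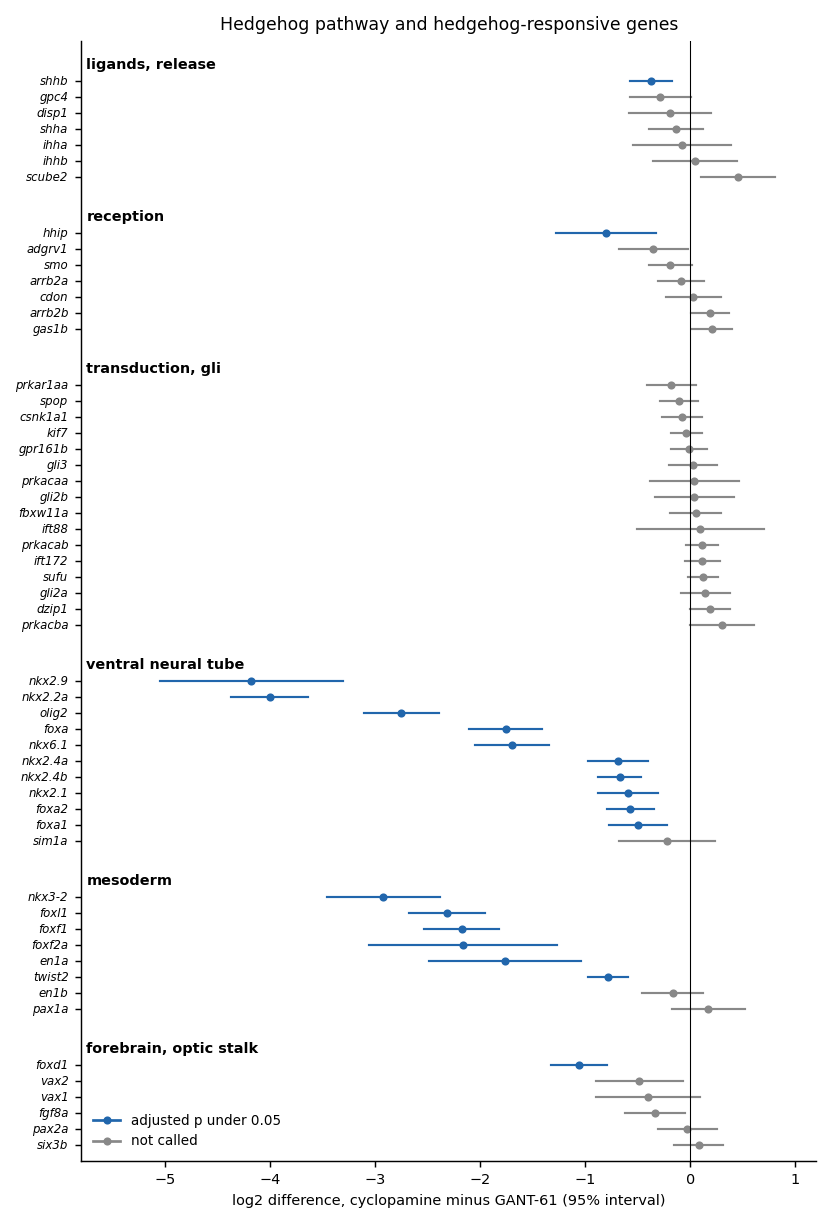
Difference between the compounds (log2, cyclopamine minus GANT-61) with its 95% interval for each tested hedgehog gene, grouped by role. Blue genes passed an adjusted p of 0.05; ligand, reception and transduction genes lie between -0.80 and 0.45, and among the neural tube and mesoderm genes nkx2.2a lies at -4.00; nkx2.9 is drawn at its fitted value, although its cyclopamine arrays give a bound alone.

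Genes of slow muscle fibres, which arise next to the notochord, were lower under cyclopamine as well. Of 12 slow muscle genes tested, 8 fell and 0 rose, with a median of -2.01, beside 3.72% of all probes called lower. In all 8 the groups were separate, beside 2.79% of all probes, and 1 of the 8, en1a, passed the background filter through GANT-61 alone. That gene also counts among the mesoderm genes above. smyhc1, the slow myosin heavy chain gene, read -5.01, -2.93, -0.59, -3.45 and -2.58 under cyclopamine, against -0.07, 1.02, 0.86, 0.51 and -0.01 under GANT-61 and -0.26 to 0.55 under ethanol. The cyclopamine arrays spread over more than 4 log2 units, with array 3 highest, and none reached the GANT-61 range. Its difference was -3.22 ± 0.50, or 9.32-fold (adjusted p = 0.000817), and within slides it was -3.90, -1.60, -4.13 and -2.57.

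The myosin light chain gene myl10 read 2.93, 3.96, 4.97, 3.53 and 4.75 under cyclopamine and 6.85, 6.70, 6.91, 6.87 and 6.82 under GANT-61. The GANT-61 arrays lay close together (SD 0.08), and the lowest of them stood well above the highest cyclopamine array. The difference was -2.74 ± 0.25 (adjusted p = 6.11e-06). actc2, a cardiac-type actin gene, read -1.56, -0.68, -0.26, -1.43 and -0.11 under cyclopamine and 2.06, 2.57, 2.4, 1.3 and 2.12 under GANT-61, a difference of -2.96 ± 0.22 (adjusted p = 6.76e-07). The other called members were fhl1a, a LIM domain protein gene, at -3.24 ± 0.29, the light chain gene myl13 at -2.72 ± 0.31, the troponin genes tnni4b.2 and tnnc1b at -2.18 and -1.85, and en1a. prox1a, which acts in slow fibre differentiation, differed by -0.18 between the compounds (95% interval -0.35 to -0.02, adjusted p = 0.203) and did not pass, although cyclopamine differed from ethanol by -0.34 (adjusted p = 0.0286). GANT-61 differed from ethanol by 0.20 in smyhc1 (95% interval -0.85 to 1.26), by -0.04 in myl10 (-0.57 to 0.50) and by 0.23 in actc2 (-0.23 to 0.70).

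Of 36 fast and general muscle genes tested, 3 fell and 0 rose, beside 3.72% of all probes called lower, and their median was 0.05. myod1, the myogenic regulator that hedgehog signalling maintains in adaxial cells, read 0.90, 1.34, 1.37, 1.06 and 1.38 under cyclopamine and 1.83, 2.27, 2.06, 1.65 and 1.90 under GANT-61, with no overlap, and differed by -0.74 ± 0.10 (adjusted p = 0.00038). actn2b, an alpha-actinin gene, differed by -1.58 ± 0.26 and lost its call without slide 1, and the myosin chaperone gene unc45b differed by -0.51 ± 0.09 and lost its call in 4 of the 30 alternatives.

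Outside the hedgehog and muscle lists the largest difference of a named gene was that of hspb9l, a small heat shock protein gene. It read -4.59, -4.90, -3.78, -4.15 and -4.87 under cyclopamine, against 0.05, -1.07, -0.43, 0.05 and -0.54 under GANT-61 and -0.40 to 0.21 under ethanol. The compounds were separated by more than 2 log2 units at their nearest arrays, and the difference was -4.00 ± 0.26, or 16-fold (adjusted p = 1.17e-07). Of 27 heat shock and unfolded protein genes tested, 3 fell and 0 rose, beside 3.72% of all probes called lower, and hsp70l differed by -1.01 without passing. The forkhead gene foxd5 differed by -2.89 ± 0.26 and the troponin gene tnni1c by -2.54 ± 0.22, and both had separate groups.

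Genes of the neurons that arise from ventral progenitors were lower under cyclopamine in part. Of 15 motor and ventral neuron genes, 6 fell and 0 rose, with a median of -0.27, beside 3.72% of all probes called lower. Of the 6, olig2 and nkx6.1 were already counted among the ventral neural tube genes. The background filter was passed through GANT-61 alone by 2 of the 15, and among the 13 measured in both groups 5 fell. phox2a, a gene of cranial motor and noradrenergic neurons, read -2.24, -1.70, -1.40, -2.18 and -2.24 under cyclopamine and -0.70, -0.05, -0.42, -1.0 and -0.37 under GANT-61, a difference of -1.50 ± 0.15 (adjusted p = 1.74e-05) with separate groups. mnx2a, a motor neuron gene, differed by -2.05 ± 0.31. It was above background on 1 of 5 cyclopamine arrays, so its selection through GANT-61 alone built in a difference. The related mnx1 differed by -0.69 ± 0.13 and lost its call without the slide term, in the fit of the 10 arrays alone and without slide 1 or slide 3. Of 21 general neuronal genes tested, 0 fell and 1 rose, eno2, an enolase gene of neurons, at 0.75 ± 0.19 (adjusted p = 0.0280), a share near the 5.62% of all probes called. The call of eno2 was lost in 12 of the 30 alternatives, the slide and replicate block among them (adjusted p = 0.071).

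Of 22 dorsal and intermediate neural tube genes tested, 4 rose and 1 fell, beside 1.9% of all probes called higher, and their median was 0.20. Without the slide term, and in the fit of the 10 arrays alone, 2 rose, beside 25 and 19 of all 11134 probes called higher. her3, a gene of the hairy and enhancer of split family, read 0.49, 0.40, 0.00, 0.54 and 0.60 under cyclopamine and -0.53, -0.49, -0.37, -0.39 and -0.43 under GANT-61, so that the lowest cyclopamine array was above every GANT-61 array. The difference was 0.87 ± 0.09 (adjusted p = 2.64e-05), and that of GANT-61 to ethanol was 0.02 (95% interval -0.18 to 0.21). dmrt3a and dbx1a, genes of intermediate interneuron progenitors and neurons, differed by 0.86 ± 0.14 and 0.55 ± 0.08 (adjusted p = 0.00112 and 0.000274), and pax6b, a gene of the neural tube, eye and pancreas, by 0.46 ± 0.09. The member that fell was irx3b, at -0.66, named after its value was seen. Against ethanol it gave 0.32 for cyclopamine and 0.99 for GANT-61.

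Of 22 eye field and retina genes, 4 rose and 3 fell, beside 1.9% and 3.72% of all probes. Of the 3, foxd1 was already counted among the forebrain genes. six6a and six6b, homeobox genes of the optic vesicle and hypothalamus, differed by -1.44 ± 0.12 and -1.08 ± 0.17 (adjusted p = 3.38e-06 and 0.00089). six6a read -4.56, -4.61, -4.97, -4.66 and -4.21 under cyclopamine and -2.88, -3.23, -3.39, -3.34 and -3.20 under GANT-61, with separate groups, and GANT-61 differed from ethanol by -0.12 (95% interval -0.38 to 0.14). The retinal genes that rose were pax6b and mab21l1, at 0.46 and 0.56, and rx1 and aldh1a2, at 0.35 and 0.40. The call of pax6b was lost in 4 of the 30 alternatives and that of aldh1a2 in 7.

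Motile cilia line the floor plate, pronephros and other ducts of the embryo. Their genes lay below 0 in all 20 cases tested, beside 57.3% of all probes. Of the 20 genes 10 fell, beside 3.72% of all probes called lower, and the list's median was -0.56. Without slide 1, and without slide 3, 6 fell, beside 165 and 187 of all 11134 probes called lower. rsph9, a radial spoke gene, read -4.67, -4.44, -4.42, -5.07 and -4.66 under cyclopamine and -3.59, -3.52, -3.53, -4.16 and -3.74 under GANT-61. The groups did not overlap, and the difference was -1.01 ± 0.13 (adjusted p = 0.000167). cfap52 and spag6, genes of axoneme proteins, differed by -0.80 ± 0.10 and -0.62 ± 0.08. foxj1a, the transcription factor gene that switches on motile cilia, differed by -0.93 ± 0.20 (adjusted p = 0.0127) and lost its call without cyclopamine array 4, without slide 1, 3 or 4 and with the slide and replicate block (adjusted p = 0.0656). Relative to ethanol the list's median was -0.44 under cyclopamine and 0.10 under GANT-61. The floor plate and notochord list, which holds foxj1a too, had 5 of 18 genes lower and 0 higher, beside the same 3.72%. Of the 5, foxa and foxa2 were already counted among the ventral neural tube genes.

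Of 17 vessel genes tested, 5 fell and 0 rose, with a median of -0.22, beside 3.72% of all probes called lower. vegfaa, the vascular growth factor gene that somites express in response to the hedgehog ligand, read -2.33, -2.25, -2.76, -2.07 and -2.26 under cyclopamine and -1.43, -1.39, -1.32, -1.41 and -1.0 under GANT-61, a difference of -1.01 ± 0.11 (adjusted p = 4.44e-05) with separate groups. dll4, a Notch ligand gene of arteries, differed by -0.80 ± 0.12 and the endothelial junction gene cldn5b by -0.90 ± 0.13. flt4 was also among the 5, with -0.05 for cyclopamine and 0.81 for GANT-61 against ethanol. In jaw and cartilage genes, 4 of 20 fell and 2 rose, beside 3.72% and 1.9% of all probes. Besides nkx3-2, the sulfatase genes sulf2b and sulf2a fell by 1.17 and 0.84 on the log2 scale, and edn1, the endothelin gene of ventral jaw patterning, rose by 0.74 ± 0.13 (adjusted p = 0.00251). In the endoderm, pancreas and liver list, 5 of 23 genes fell and 1 rose, beside 3.72% and 1.9% of all probes. Of the 23, 8 lay above 0, and the median was -0.16. Among those that fell was pdx1, a pancreatic progenitor gene, at -0.82 ± 0.11 (adjusted p = 0.00019). Others were nkx6.1, already counted among the ventral neural tube genes, and amy2al1, described below.

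**Figure D4:**
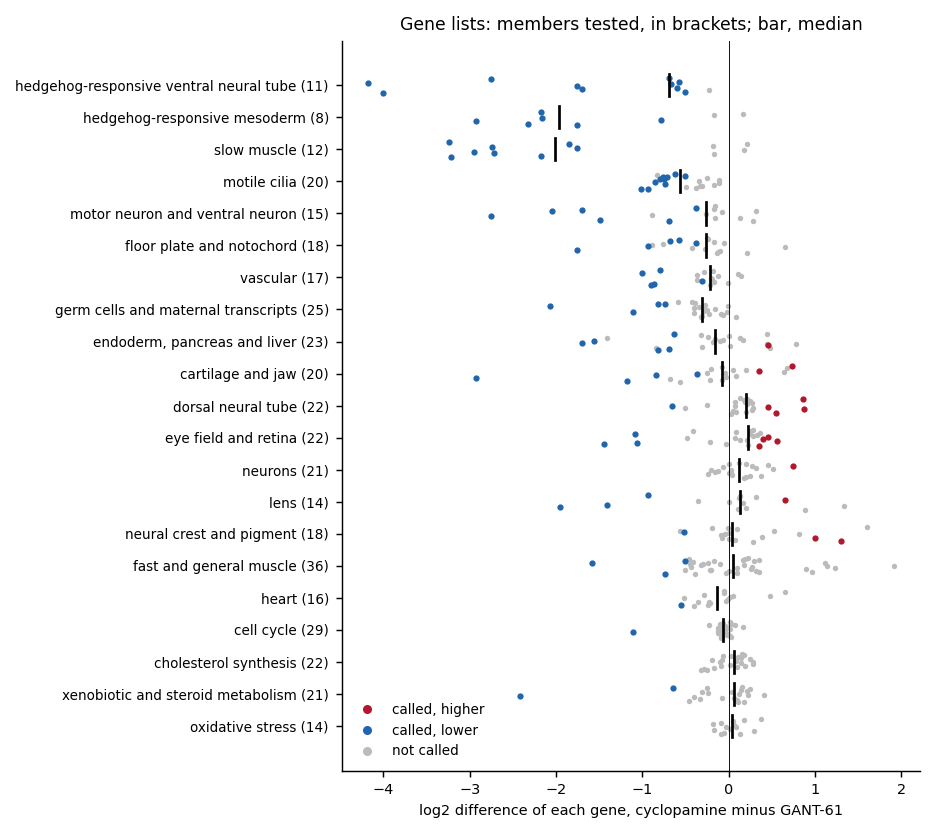
Difference of each tested gene in 21 lists (log2, cyclopamine minus GANT-61; members tested in brackets, black bar for the list's median). Red and blue points were called higher and lower under cyclopamine; the medians run from -2.01 in slow muscle to 0.22 in eye field and retina.

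In a further group of genes GANT-61 exceeded both cyclopamine and ethanol. elavl2, an RNA-binding protein gene listed here with germ cell and maternal transcripts, read -3.53, -2.49, -2.96, -3.34 and -2.88 under cyclopamine, against -0.75, -0.60, -1.11, -1.14 and -1.11 under GANT-61 and -2.99, -2.83, -2.85, -1.54 and -3.26 under ethanol. The GANT-61 arrays were the highest of the 3 groups, and ethanol array 4 came closest to them. The difference between the compounds was -2.07 ± 0.28, or 4.2-fold (adjusted p = 0.000204). GANT-61 exceeded ethanol by 1.72, and by 2.16 without ethanol array 4, while cyclopamine differed from ethanol by -0.35 (adjusted p = 0.57). Here and in the genes below, ethanol array 4 was left out after its values were seen. Leaving out the ethanol array closest to GANT-61 widens such a difference by itself.

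pm20d1.1, a gene of the M20 peptidase family, read -4.39, -4.25, -4.30, -4.05 and -4.06 under cyclopamine and -2.11, -1.72, -1.32, -1.47 and -1.67 under GANT-61. Ethanol arrays read -4.25, -4.15, -3.98, -2.36 and -3.90, so that arrays 1 and 2 lay within the cyclopamine range, arrays 3 and 5 just above it and array 4 between the compounds. The difference was -2.41 ± 0.22, or 5.33-fold (adjusted p = 4.69e-06), and GANT-61 exceeded ethanol by 1.93, or by 2.3 without ethanol array 4. sycp3, a synaptonemal complex gene of meiotic cells, differed by -2.47 ± 0.41 (adjusted p = 0.00142), with ethanol at -5.87 to -3.33. It was above background on 3 of 5 cyclopamine arrays, so it passed the background filter through GANT-61 alone. A difference was thus built into its selection, and its call was lost without slide 1.

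Germ cell and maternal transcripts were lower under cyclopamine than under GANT-61 in 24 of 25 tested genes, beside 57.3% of all probes. Of the 24, 4 passed, beside 3.72% of all probes called lower. In the list 0 rose, and its median was -0.30. Besides elavl2 the 4 that passed were birc5b, a survivin-type gene of maternal transcripts, at -1.10 ± 0.11, nanog, a maternal homeobox gene, at -0.82 ± 0.12, and piwil1, a germ line Piwi gene, at -0.73 ± 0.18. piwil1 lost its call in 11 of the 30 alternatives, with replicate number instead of slide as the block among them (adjusted p = 0.0941), and cyclopamine array 3 lay above every GANT-61 array in it. The germ cell marker gene ddx4 differed by 0.08 (adjusted p = 0.724). Relative to ethanol the list's median was 0.13 under cyclopamine and 0.52 under GANT-61. Against ethanol 5 of the 25 were called higher under GANT-61 and 0 under cyclopamine, beside 191 and 58 of all 11134 probes. Without the slide term 2 of the 25 passed between the compounds, beside 209 of all 11134 probes.

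In the lens the members split. lim2.2, a lens membrane protein gene, read -4.75, -4.26, -4.08, -4.54 and -3.80 under cyclopamine and -2.53, -1.93, -2.44, -2.66 and -1.85 under GANT-61, against -4.50 to -3.37 under ethanol. The GANT-61 arrays lay above all others, and the difference was -1.96 ± 0.19 (adjusted p = 8e-06). The crystallin genes crygn1 and crygn2 differed by -1.40 ± 0.20 and -0.93 ± 0.22, the second with overlapping groups and a call lost in 8 of the 30 alternatives. crygn1 was above background on 3 of 5 cyclopamine arrays, so it passed the background filter through GANT-61 alone. crybb1l2, another crystallin gene, rose by 0.65 (adjusted p = 0.0384), a call lost in 18 of the 30 alternatives, the replicate block among them (adjusted p = 0.142). Of 14 lens genes, 3 fell, 1 rose and 10 did not pass, beside 3.72% and 1.9% of all probes, 10 of the 14 lay above 0 and their median was 0.13. The pancreatic amylase gene amy2al1 and the lymphatic and venous receptor gene flt4 differed by -1.56 ± 0.21 and -0.86 ± 0.14 between the compounds, and GANT-61 exceeded ethanol by 1.18 and 0.81. Without ethanol array 4 these were 1.41 and 1.00, and in flt4 that array, at -1.68, lay within the GANT-61 range of -2.08 to -1.28.

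In some of the genes that rose under cyclopamine relative to GANT-61, the GANT-61 arrays were the lowest of the 3 groups. emp3b, a gene of the epithelial membrane protein family, read -4.13, -4.42, -4.64, -3.89 and -4.67 under cyclopamine, against -5.70, -5.37, -6.33, -5.67 and -6.09 under GANT-61 and -5.08 to -4.73 under ethanol. The 3 groups stood apart with cyclopamine highest, GANT-61 lowest and ethanol between them, and 2 of 5 GANT-61 arrays had the probe above background. The difference was 1.48 ± 0.18 (adjusted p = 9.02e-05), and GANT-61 differed from ethanol by -0.98 (adjusted p = 0.014). sfxn5b, a mitochondrial carrier gene, differed by 1.22 ± 0.21 (adjusted p = 0.00211), with GANT-61 at -0.99 against ethanol (adjusted p = 0.031). Of the 15 largest rises, emp3b alone lost its call in none of the alternatives that tested it, and sfxn5b lost it only without the slide term. emp3b passed the background filter through the cyclopamine arrays alone, which built a difference into its selection. It was not tested in the alternative that asked for all 10 arrays above background.

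Pigment cell genes were among those higher under cyclopamine than under GANT-61. mitfa, the regulator of melanocyte fate, read -0.15, -1.15, -0.32, -0.16 and -1.23 under cyclopamine and -1.49, -1.72, -1.67, -0.78 and -1.92 under GANT-61. The arrays overlapped, as GANT-61 array 4 exceeded 2 of the cyclopamine arrays, and the difference was 1.00 ± 0.21 (adjusted p = 0.0103). csf1b, a ligand gene of the receptor that xanthophores and macrophages use, differed by 1.54 ± 0.37 (adjusted p = 0.0212), and tfap2e, a neural crest transcription factor gene, by 1.3 ± 0.32 (adjusted p = 0.0236). Against the shared ethanol arrays mitfa gave 0.39 for cyclopamine and -0.60 for GANT-61, csf1b 0.67 and -0.87, and tfap2e 0.64 and -0.66. No such difference from ethanol passed. The calls of mitfa, csf1b and tfap2e were lost without slide 1, slide 3 or cyclopamine array 4. All 3 were also lost without the slide term and in the fit of the 10 arrays alone. In all, csf1b lost its call in 10 of the 30 alternatives and tfap2e in 11. Of 18 neural crest and pigment genes, 2 rose and 1 fell, beside 1.9% and 3.72% of all probes, and the median was 0.04. The other rises included eomesa, a gene of the dorsal forebrain, at 0.94 ± 0.18, and fabp7a, a fatty acid binding protein gene of radial glia, at 0.87 ± 0.19.

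**Figure D5:**
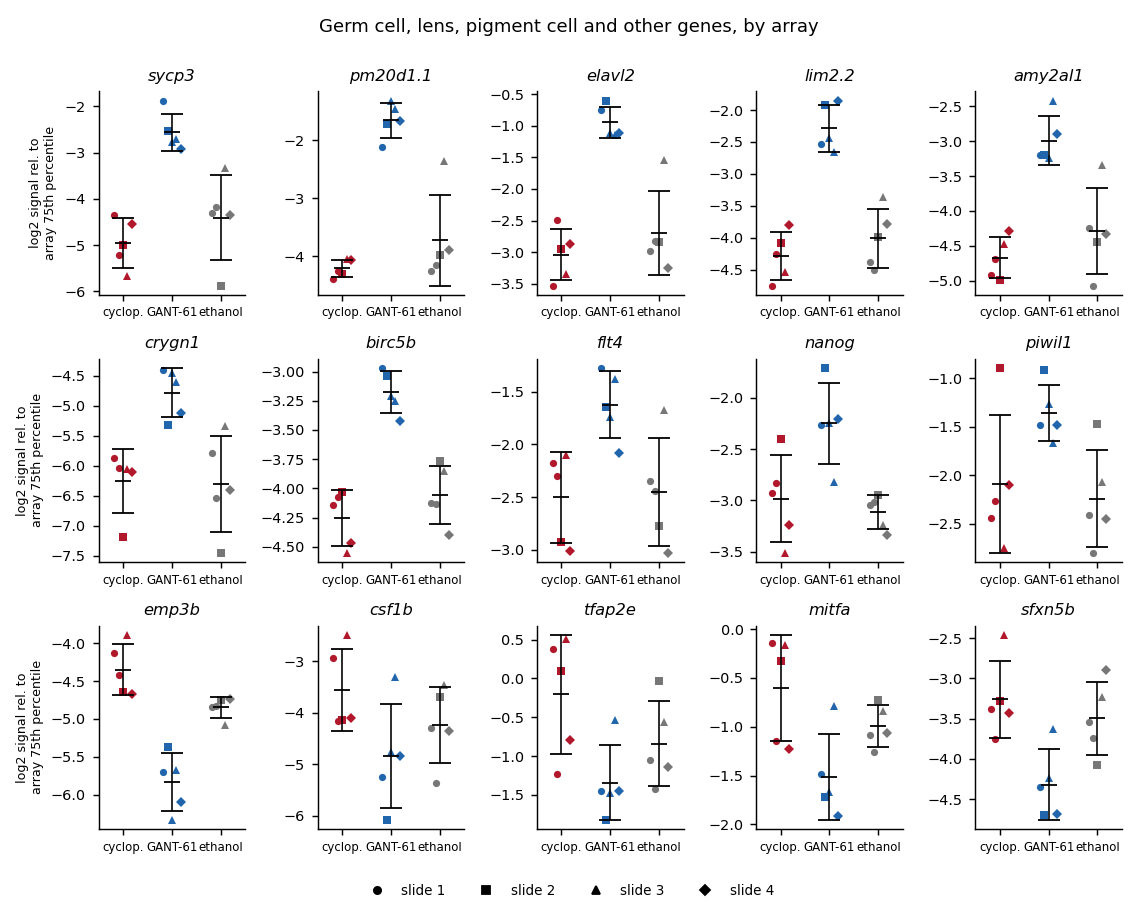
Level of 15 genes on each array (log2 relative to the array's 75th percentile) for cyclopamine, GANT-61 and ethanol, with symbols for the slides and bars for the mean and SD of 5 arrays. In pm20d1.1 the GANT-61 arrays lie between -2.11 and -1.32 and the cyclopamine arrays between -4.39 and -4.05, and the ethanol array of slide 3 reads -2.36.

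In lists of general processes most counts lay below the 5.62% of all probes called, and with so few calls nothing is read from them about these lists. In cholesterol synthesis 0 of 22 genes passed (1 at an unadjusted p under 0.05), in oxidative stress 0 of 14 (1), in the lysosome 0 of 20 (2) and in the epidermis 0 of 18 (4). In the cell cycle 1 of 29 fell relative to GANT-61, birc5b, and the list's median was -0.06. Of 21 genes of xenobiotic and steroid metabolism 2 fell relative to GANT-61, pm20d1.1 and the cytochrome P450 gene cyp2p6, the second at -0.65 ± 0.12 (adjusted p = 0.00253). Against the shared ethanol arrays birc5b gave -0.20 for cyclopamine and 0.90 for GANT-61, pm20d1.1 gave -0.48 and 1.93, and cyp2p6 gave -0.09 and 0.56. In all of them GANT-61 was called higher than ethanol in limma, and cyclopamine was not called.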

How the data were processed

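Total RNA of 100 embryos per sample was extracted with Trizol, amplified, labelled with Cy3 and hybridised to single-colour Agilent arrays, per the labels' protocols. The scanner files deposited by the authors hold an intensity per spot, which per the file headers Feature Extraction 10.1.1.1 had background-subtracted, with no scaling across arrays. A table of log2 values was deposited by the authors too, which the series' design text calls normalized and which was used as an alternative only. Its probe identifiers were matched to the scanner files, and each column correlated with its own array, the lowest at 0.998.

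Here the intensity was taken to log2 and the 75th percentile of each array's non-control spots was subtracted. Spots marked as outliers were left out, and spots of 1 probe were averaged. Names came from the reference gene table of assembly GRCz12tu, used for names alone. Of 14694 probes, 9185 had 1 symbol, 0 had several and 5509 had none, 3750 of these carrying an Ensembl transcript alone. Where a gene had several probes, the brightest stood for it in the lists. Tested probes had a signal well above background on 4 or more of the 5 arrays of cyclopamine or of GANT-61. This left 11134 probes and set 3560 aside; 541 passed through GANT-61 alone and 131 through cyclopamine alone. A value was missing on at least 1 array for 23 tested probes.

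All 20 arrays were fitted in limma 3.58.1 (R 4.3.3) with terms for the 4 groups (cyclopamine, GANT-61, SANT-2 and ethanol) and 4 slides, and p-values of the 1 pair of compounds were two-sided, with Benjamini-Hochberg adjustment over all 11134 probes. Standard errors and 95% intervals come from that fit. Cyclopamine arrays 1 and 2 lay on slide 1, array 3 on slide 2, array 4 on slide 3 and array 5 on slide 4. GANT-61 array 1 lay on slide 1, array 2 on slide 2, arrays 3 and 4 on slide 3 and array 5 on slide 4. The number of arrays limits the precision.

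The deviations of the cyclopamine and GANT-61 arrays of the same replicate number correlated at 0.604, 0.224, 0.225, 0.625 and 0.554. The arrays numbered 1, 4 and 5 share a slide with their partner. Between arrays of different numbers the median was 0.246 on the same slide and -0.195 on different slides. Same-numbered arrays thus correlated more than these medians, both on the same slide and on different slides. Of the 5 cyclopamine arrays, 4 were closest to the GANT-61 array of their own number. With so few pairs, and correlations of both signs once the slide effect is removed, this check does not settle whether the numbers pair the arrays. Fits with the number as a block were run as alternatives. The labels do not say what the numbers mark. After the slide effect was removed the correlations were 0.225, 0.199, 0.174, -0.09 and -0.625.

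Named genes were the 15 largest rises and falls among called probes with a gene symbol and the same direction on every slide, all tested hedgehog genes, and from each other list up to 4 called members with the smallest adjusted p or, if none, the 2 with the highest signal. The comparison, its arrays and the gene lists were chosen with earlier results of these data known. Other members of a list were named after their values were seen. Alternatives covered the block, the scaling, the background correction, the filter, outlier spots, the probes per gene, the spread model, array weights and leaving out arrays or slides. A motile cilia gene that the rule names is not reported here. No sequences are printed.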

Additional observations from a re-analysis of the deposited data

Results flagged for a closer look

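In 141 named genes the 5 arrays of each compound were searched for an array whose gap to its nearest neighbour took up more than 0.71 of the group's range. Of 282 groups 19 had one, and chance marks about 1 in 20 groups. Cyclopamine array 3 was the one in 8 of the 19, GANT-61 array 4 in 6, GANT-61 array 5 in 3, and cyclopamine arrays 4 and 5 in 1 each. Levels are log2 relative to the array's 75th percentile.

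On cyclopamine array 3, on slide 2, nkx2.2a stood at -3.59 with the other 4 arrays at -4.87 to -4.58, gpc4 at -1.14 with the others at -2.71 to -2.42, vax2 at -4.42 with the others at -6.14 to -5.66, and the alpha-actinin gene actn2b at -3.21 with the others at -4.92 to -4.46. The same array was high in the keratin genes krt4, at 9.12 against 7.65 to 7.95, and krt8, at 8.50 against 7.40 to 7.71. It was low in the crystallin gene crygn1, at -7.19 against -6.09 to -5.86, and in the glutathione peroxidase gene gpx4a, at 3.84 against 4.74 to 5.05.

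On GANT-61 array 4, on slide 3, nkx2.2a stood at -0.99 with the other 4 at -0.54 to -0.36, foxa at 0.75 with the others at 1.44 to 1.62, scube2 at -4.64 with the others at -4.02 to -3.82, and fgf8a at -1.10 with the others at -0.79 to -0.72. It was high in atp1a1a.2, a sodium pump gene, at 0.13 against -2.08 to -1.45, and in tfap2e, at -0.53 against -1.82 to -1.45. GANT-61 array 5, on slide 4, was high in vegfaa at -1.0 with the others at -1.43 to -1.32, in dll4 at -0.99 with the others at -1.67 to -1.48, and in spry4, a feedback gene of growth factor signalling, at 1.54 with the others at 1.18 to 1.28. Cyclopamine array 4 was low in pax2a, at -0.67 against -0.37 to -0.26, and cyclopamine array 5 in shha, at 1.40 against 1.91 to 2.11.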

How the results depend on the processing

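Of 30 alternatives, 0 turned the direction of a called named gene. Among 95 called named genes, 42 lost their call in none of the alternatives that tested them, and 18 lost it in 10 or more. The 42 include nkx2.2a, nkx2.9, olig2, nkx3-2, smyhc1 and pm20d1.1. The alternative limited to probes above background on all 10 arrays did not test nkx2.9 or other genes below background on some of them. The 626 calls (212 higher, 414 lower) became 209 (25 and 184) without the slide term and 188 (19 and 169) with the 10 arrays fitted alone. They became 190 (25 and 165) without slide 1, 231 (44 and 187) without slide 3 and 330 (81 and 249) without slide 4. Leaving out 1 array gave 278 to 619 calls, 54 to 213 higher and 224 to 407 lower, the lowest without cyclopamine array 4. With no filter, over 14694 probes, 133 were called higher. Median scaling gave 257 higher and 336 lower, quantile scaling 285 and 364, and 261 and 370 came from the authors' deposited log2 values. The hedgehog-responsive list's 18 calls became 11 without slide 3. With the replicate number as a block in place of slide there were 664 calls, 222 higher and 442 lower, of which 480 were shared with the 626. That replicate block ended the calls of 11 named genes: shhb, piwil1, crybb1l2, pvalb7, actc1a, fech, foxc1a, foxc1b, cyp1d1, hspa4a and casp3a. It changed no other call among the named genes. With slide and replicate number together 565 were called, of which 429 were shared with the 626. Within a slide no test was made. The normexp correction (497 calls) was changed after the data were seen, since with the backgrounds as given it failed on 1 array, and the fit without ethanol array 4 (619 calls) was added then too. The cause of these differences was not tested. Probes below background on a whole group give a bound alone.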

Other observations

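Several genes with wide differences did not pass the test and were named after their values were seen. The fast muscle genes pvalb1, a parvalbumin gene, and casq1b, a calsequestrin gene, differed by 1.92 and 1.24 between cyclopamine and GANT-61. Against the shared ethanol arrays pvalb1 gave 0.14 for cyclopamine and -1.78 for GANT-61, and casq1b gave 0.02 and -1.22. The troponin genes tnnt3a and tnnt3b gave 1.12 and 0.89 between the compounds. The fast and general muscle list did not rise with these members. Of its 36 genes 19 lay above 0 and 17 below, with a median of 0.05, and 0 were called higher and 3 lower. gch2, an enzyme gene of xanthophore pigment, differed by 1.60, and tyrp1b, an enzyme gene of melanin synthesis, by 0.81, with 0.70 and -0.22 for cyclopamine and -0.90 and -1.03 for GANT-61 against ethanol.

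Among 17 red cell genes 1 passed, a share near the 5.62% of all probes called. It was fech, a haem synthesis gene, at 0.62 (adjusted p = 0.0486, and 0.0981 with the replicate block), and its call was lost in 18 of the 30 alternatives. klf1, the erythroid transcription factor gene, differed by 0.95 and the globin gene hbae1.1 by 0.55, and neither passed. In the heart list 1 of 16 genes fell, beside 3.72% of all probes called lower, and nothing is read from these counts about the lists. That gene was actc1a at -0.55 (adjusted p = 0.0224, and 0.0559 with the replicate block), a call lost in 11 of the 30 alternatives. Of 17 glial genes 3 fell and 2 rose, beside 3.72% and 1.9% of all probes. Of the 3, nkx2.2a and olig2 were already counted among the hedgehog-responsive genes. The neural progenitor gene sox1b fell by 0.88 ± 0.10 on the log2 scale (adjusted p = 4e-05), with cyclopamine arrays at 0.16 to 0.48 and GANT-61 arrays at 0.82 to 1.45, which did not overlap.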
